A study of Rattus norvegicus with 142 samples.

Results

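Cortical gene expression in noHS pups was compared between 48 h and 1 h after the sham event, in 9 of the 142 libraries of the series. These are the cortex arrays labelled as normoxic control with vehicle, 4 at 1 h and 5 at 48 h, each made from the cortex of 1 Long-Evans rat pup and called a library here. The same pair of times in hippocampus, with 5 libraries at each time, was set beside them, and cortex of the HS pups (5 and 5 libraries) and of the HS+NBQX pups (4 and 5 libraries) was read at the same times. All 24249 probe sets of the array were tested, and a probe set is a group of probes that together report 1 transcript or a few related ones.

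Every pup met its treatment on postnatal day 10. The noHS pups had a sham event in normal air and then vehicle injections of DMSO. The HS pups had a period of mild hypoxia at low oxygen, which induces seizures at this age, and then vehicle, and the HS+NBQX pups had the hypoxia and then injections of NBQX, a blocker of AMPA-type glutamate receptors. Injections began shortly after the event and were spread over the following 48 h, so a pup killed at 1 h cannot have had the whole course that a pup killed at 48 h had, and age and number of injections cannot be told apart. The 4 cortex pups of the 1 h group came from 2 litters and the 5 pups of the 48 h group from 2 other litters, so time and litter cannot be told apart within noHS either. All 9 of these pups also gave a hippocampus library.

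The second postnatal week is a time of rapid growth in the rodent cortex. Synapses form in large numbers, dendrites and astrocytes extend, oligodendrocytes mature and begin to wrap axons in myelin, and cell division declines. Transcripts of myelin and of mature synapses are known to rise over this period, and transcripts of dividing and migrating cells to fall. The sources used here do not pair the probe sets of this array with genes. The probe sets below therefore carry their identifiers only, the labelled tissue was not checked against marker genes, and counts by pathway or cell type are not given.

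Among the 9 cortex libraries, those of the same time resembled each other closely. Pearson's r across probe sets between replicates was 0.958 to 0.967 at 1 h and 0.959 to 0.972 at 48 h. The library median of log2 intensity was 6.22 ± 0.087 (SD, n = 4) at 1 h and 6.16 ± 0.064 (SD, n = 5) at 48 h (two-sided exact permutation test, p = 0.286). Pup weight on the day of the sham event was 19.0 ± 0.816 g (SD, n = 4) in the 1 h group and 20.8 ± 1.30 g (SD, n = 5) in the 48 h group (two-sided exact permutation test, p = 0.111, and 0.370 after Benjamini-Hochberg adjustment over 10 measures).

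In noHS cortex, 694 of 24249 probe sets passed the test between 48 h and 1 h, which is 2.86% of those tested (limma, Benjamini-Hochberg adjusted p under 0.05). They divided almost evenly, with 353 higher (1.46%) and 341 lower (1.41%) at 48 h. Under another scaling of the arrays this balance moved: with quantile normalization 568 were higher and 339 lower, and with a common median for all arrays 582 were higher and 177 lower, while the median change over all probe sets went from -0.019 to 0.0095 and 0.043 on the log2 scale. Without adjustment, 4235 probe sets (17.5%) had p under 0.05. The RNA came from whole cortex, so fewer cells of a type and less RNA per cell cannot be told apart.

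Most of the changes were small. The median fold was 1.40 among the probe sets that rose and 1.44 among those that fell, and 127 in each direction changed more than 1.5-fold. Over 2-fold changes were found for 41 probe sets that rose and 24 that fell, and over 3-fold changes for 24 and 7. Of these 65 probe sets with over 2-fold changes, 37 lay in the 2 dimmest quintiles of the array, with mean intensities up to 38.2.

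Calls were most frequent among bright probe sets. In the brightest quintile, with mean intensities from 416 to 8455, 271 of 4850 probe sets (5.59%) were called, with a median fold of 1.31. In the dimmest quintile, with mean intensities up to 10.7, 18 of 4850 (0.371%) were called, with a median fold of 4.05. Of the 694, 1 was an array control, AFFX-DAPX-5_AT, which reports a bacterial transcript and not a rat one, with a log2 change of 2.21 ± 0.62 (SE, adjusted p = 0.0481).

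**Figure D1:**
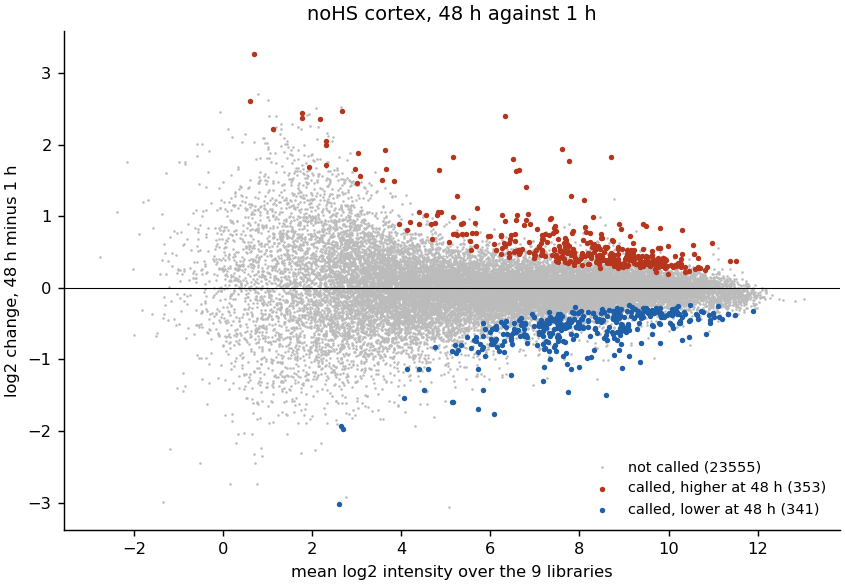
Log2 change between 48 h and 1 h in noHS cortex (vertical axis) against the mean log2 intensity over the 9 libraries (horizontal axis), 1 point per probe set, with called probe sets in red (353 higher) and blue (341 lower) and the other 23555 in grey. The called probe sets follow the edge of the cloud, at small changes where intensity is high and at large ones where it is low.

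The separation of the single libraries was clear for most called probe sets. For 299 of the 353 that rose, every 48 h library lay above every 1 h library, and for 288 of the 341 that fell, every 48 h library lay below. Such separation was present in 3.84% of all probe sets upward and 4.44% downward, and the test used the same libraries.

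The count depended on how litter and plate position entered the fit. When litter was entered as a random block the count fell to 285, and a random block for plate column left 178, all of these among the 694. The 1 h libraries lay in plate columns 9 and 10 and the 48 h libraries in columns 11 and 12, and with the column as a fixed factor 2 were called and 0 of these were among the 694. Leaving out 1 h replicate 4 gave 213 calls, 1 h replicate 1 gave 289, 48 h replicate 3 gave 360, 1 h replicate 3 gave 444 and 48 h replicate 2 gave 457.

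Among the probe sets that rose, 1387040_AT and 1368263_A_AT had the largest changes of the 238 with non-overlapping groups and a mean log2 intensity of at least 7 at 48 h. The intensity of 1387040_AT in the 1 h cortex libraries was 24.3, 68.0, 31.5 and 19.8, and in the 48 h libraries it was 187, 169, 189, 178 and 125. The lowest 48 h library was thus above the highest 1 h library, and the 1 h library at 68.0 stood above its 3 companions. The change was 2.40 ± 0.39 on the log2 scale (SE, adjusted p = 0.00165), or 5.27-fold.

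For 1368263_A_AT the 1 h libraries read 66.4, 183, 85.0 and 72.7, and the 48 h libraries read 346, 403, 387, 363 and 295. The high 1 h library was the same pup as for 1387040_AT, and the groups did not overlap with it included. The change was 1.94 ± 0.27 on the log2 scale (SE, adjusted p = 0.00086), or 3.83-fold.

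On average both probe sets lay between these levels at 6 h and 12 h and were far higher at 168 h, in pups of other litters. The 1387040_AT probe set read 72.2 ± 39.0 at 6 h (SD, n = 6), 103 ± 64.4 at 12 h (SD, n = 5) and 1139 ± 187 at 168 h (SD, n = 5). That of 1368263_A_AT was 196 ± 67.4 at 6 h (SD, n = 6), 242 ± 99.1 at 12 h (SD, n = 5) and 1074 ± 90.6 at 168 h (SD, n = 5). The 6 h and 12 h groups overlapped in both probe sets, and all 168 h libraries lay above all earlier ones. At 12 h single libraries ran from 37.1 to 191 for 1387040_AT and from 141 to 355 for 1368263_A_AT. Both ranges overlapped those at 1 h and at 48 h.

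Among the probe sets that fell, 1379548_AT and 1374762_AT had the largest changes of 232. These 232 had non-overlapping groups and a mean log2 intensity of at least 7 at 1 h, the higher group. For 1379548_AT the 1 h libraries had intensities of 644, 843, 517 and 796, against 190, 181, 235, 493 and 213 in the 48 h libraries. The groups did not overlap, though the 48 h library at 493 came close to the lowest 1 h library. The change was -1.50 ± 0.34 on the log2 scale (SE, adjusted p = 0.0155), and its adjusted p was 0.0514 with litter as a random block, 0.0692 with plate column as a random block, 0.0789 with the GAPDH 3' to 5' ratio as a covariate and 0.0686 without 1 h replicate 4. With plate column as a fixed factor the call was lost for all 4 probe sets named for cortex.

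For 1374762_AT the 1 h libraries read 395, 273, 368 and 498, and the 48 h libraries read 137, 137, 142, 126 and 144. The 48 h libraries were tightly grouped and all lay below the lowest 1 h library. The change was -1.45 ± 0.28 on the log2 scale (SE, adjusted p = 0.00595).

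The course over the other times differed between these 2 probe sets. The intensity of 1379548_AT was already 223 ± 61.3 at 12 h (SD, n = 5) and was 205 ± 125 at 168 h (SD, n = 5), values that overlap those at 48 h. That of 1374762_AT was 286 ± 87.5 at 6 h (SD, n = 6), 251 ± 83.9 at 12 h (SD, n = 5) and 25.9 ± 11.9 at 168 h (SD, n = 5). All its 168 h libraries lay below all its 48 h libraries.

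**Figure D2:**
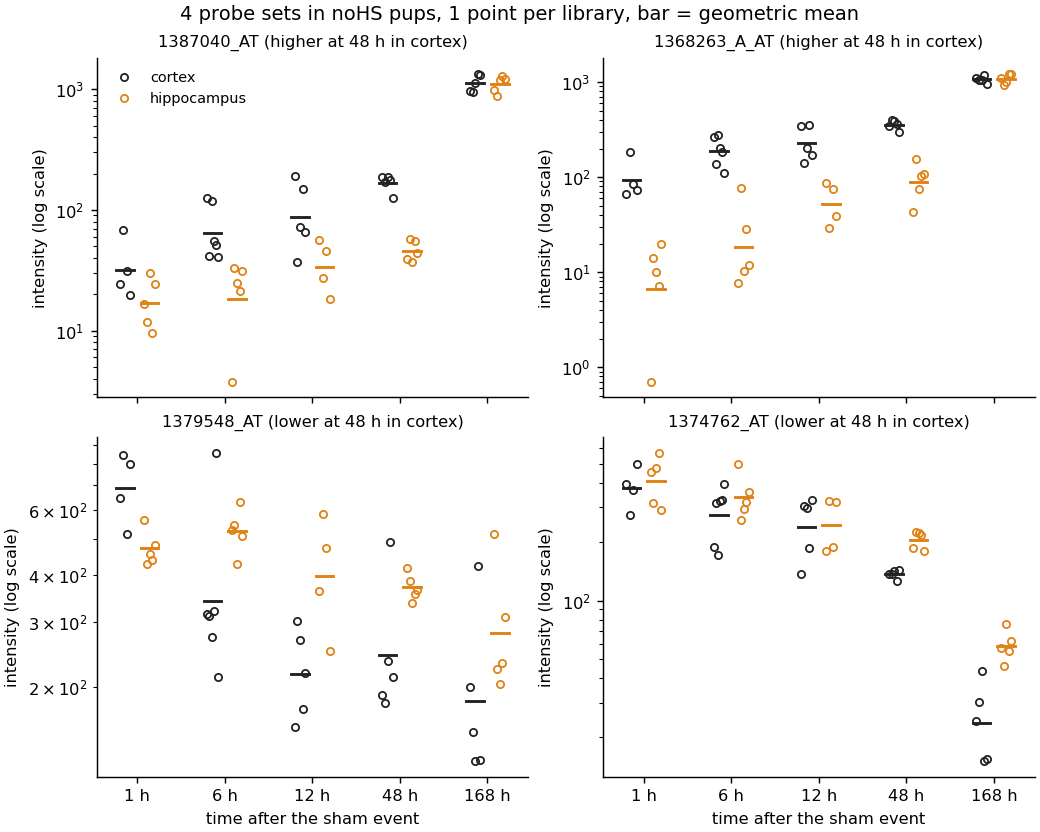
Intensity (log axis) of 1387040_AT, 1368263_A_AT, 1379548_AT and 1374762_AT in every noHS library at the 5 times, cortex in black and hippocampus in orange, with a bar at the geometric mean. In cortex the 48 h points lie wholly above the 1 h points in the upper panels and wholly below them in the lower panels, and the 168 h points of 1374762_AT reach 15.1 at the lowest.

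The array carries named control probe sets for a few rat genes. Beta-actin, a protein of the cytoskeleton, read 11.8 ± 0.10 (SD, n = 4) at 1 h and 11.6 ± 0.054 (SD, n = 5) at 48 h on the log2 scale at its 3' probe set, with no overlap between the groups. The two-sided exact permutation test gave p = 0.0159, the smallest that 4 against 5 libraries can give, and 0.159 after adjustment over the 10 measures. Its middle probe set differed by -0.34 ± 0.10 (SE) on the log2 scale, with an adjusted p of 0.0768 over all probe sets. The 3' probe sets of the glycolytic enzymes GAPDH and hexokinase differed by -0.065 ± 0.099 and 0.023 ± 0.087 (SE), with adjusted p = 0.794 and 0.931 in limma.

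The ratio of the 3' to the 5' probe set, a measure of RNA integrity and labelling, was 0.864 ± 0.048 (SD, n = 4) at 1 h and 0.772 ± 0.082 (SD, n = 5) at 48 h for GAPDH on the log2 scale (two-sided exact permutation test, p = 0.0952, and 0.370 after adjustment). With this ratio as a covariate 242 probe sets were called, of which 235 were among the 694. With the beta-actin ratio as a covariate 872 were called, and 677 were among the 694. The part of RNA quality in the changes beyond these fits was not tested.

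In hippocampus, 15 probe sets passed the same test between 48 h and 1 h (0.0619% of those tested), 13 higher (0.0536%) and 2 lower (0.00825%) at 48 h, and 2086 (8.60%) had an unadjusted p under 0.05. This count was 5 with litter or plate column as a random block, 4 with only the 1 h and 48 h libraries, and 0 without the mean-variance trend, with plate column as a fixed factor or with the methods' t-test. It was 2 without 48 h replicate 2, 5 without 1 h replicate 1 or 4, 6 without 48 h replicate 3 or 4, 7 without 1 h replicate 3 and 9 without 48 h replicate 5. The difference of the change between cortex and hippocampus was itself tested for every probe set. It was called for 0 of 24249 (limma), the smallest adjusted p was 0.707, and 1300 (5.36%) had an unadjusted p under 0.05. The counts of 694 and 15 were therefore far apart while no single probe set was shown to change differently in the 2 tissues. The spread of replicates was also larger in hippocampus, with a median residual SD of 0.308 against 0.266 in cortex on the log2 scale. Up to 48 h all noHS cortex libraries lay on 1 plate and all noHS hippocampus libraries on another. Tissue and plate can therefore not be told apart at these times.

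The probe sets called in cortex mostly moved the same way in the hippocampus of the same pups, at a smaller size. Of the 353 that rose in cortex, 330 were higher at 48 h in hippocampus, with a median log2 change of 0.26 there against 0.49 in cortex, and 46.5% had an unadjusted p under 0.05 in that direction, against 5.33% of all probe sets. Of the 341 that fell, 307 were lower in hippocampus, with a median of -0.22 against -0.52, and 31.7% had an unadjusted p under 0.05 in that direction, against 3.27% of all probe sets. Over all probe sets in hippocampus 53.5% were higher and 46.5% lower, with a median change of 0.021. The change was larger in cortex for 653 of the 694, but they were selected for their change in cortex, so this difference in size has no test. All but 1 of the hippocampus libraries come from pups whose cortex was used for the selection. In hippocampus too the 1 h libraries lay in plate columns 9 and 10 and the 48 h libraries in columns 11 and 12.

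Of the 15 hippocampal calls, 11 were also called in cortex, where 2.86% of all probe sets were called. These 11 make up 73.3% of the hippocampal list and 1.59% of the cortical one. All 15 had the same sign in cortex, where over all probe sets 11428 were higher and 12821 lower. The tissues share pups, litters and plate columns, so the 2 lists are not independent. The 4 hippocampal calls that were not called in cortex had adjusted p up to 0.158 there. Here the change was larger in hippocampus for 11 of 15, again in the tissue that selected them.

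The largest hippocampal rise belonged to 1368263_A_AT. It read 0.7, 14.0, 10.0, 7.10 and 19.7 in the 1 h hippocampus libraries and 42.9, 155, 75.0, 104 and 107 in the 48 h ones, without overlap. Its log2 change was 3.73 ± 0.63 (SE, adjusted p = 0.0129), against 1.94 in cortex, and the difference of -1.79 ± 0.74 (SE) had an unadjusted p of 0.0198 and an adjusted p of 0.895. The level at 1 h was low and 1 library stood at 0.7, so the ratio rests on dim values. In cortex the same probe set read from 66.4 upward at 1 h.

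For 1387040_AT the hippocampus libraries read 16.6, 11.8, 30.2, 9.63 and 24.2 at 1 h and 38.9, 57.5, 37.3, 54.9 and 43.7 at 48 h. They did not overlap, yet the change of 1.44 ± 0.42 on the log2 scale (SE) was not called in limma (adjusted p = 0.291). At 48 h the lowest cortex library (125) lay above the highest hippocampus library (57.5), though the tissues lay on different plates at that time. At 168 h the tissues overlapped, with 1113 ± 171 in hippocampus (SD, n = 5) and 1139 ± 187 in cortex (SD, n = 5).

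The larger of the 2 hippocampal falls was that of 1374762_AT. It read 452, 314, 476, 568 and 290 at 1 h and 185, 224, 221, 215 and 178 at 48 h, without overlap, and its change was -0.998 ± 0.195 on the log2 scale (SE, adjusted p = 0.0394). For 1379548_AT the hippocampus libraries read 430 to 565 at 1 h and 336 to 418 at 48 h. Its change of -0.35 ± 0.20 (SE) was not called (adjusted p = 0.646), and the difference from the cortex of -1.15 ± 0.41 (SE) had an unadjusted p of 0.00753 and an adjusted p of 0.895.

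**Figure D3:**
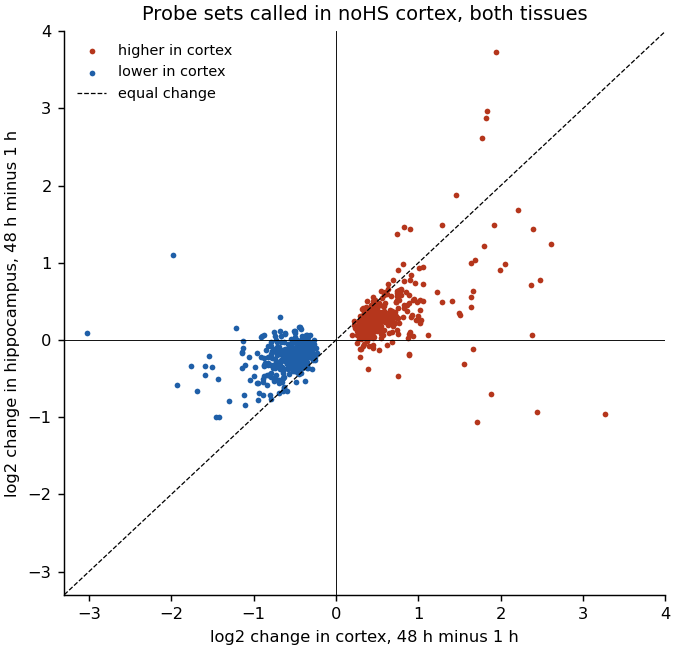
Log2 change between 48 h and 1 h in hippocampus (vertical axis) against that in cortex (horizontal axis), 1 point for each of the 694 probe sets called in noHS cortex, in red where higher and blue where lower in cortex. Most points lie on the side of the same direction (330 of 353 and 307 of 341) and nearer to 0 in hippocampus than the dashed line of equal change.

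The called probe sets were also read in cortex of other noHS pups. The 168 h libraries were set against the mean of the 6 h and 12 h libraries, which share no library, pup or litter with the 1 h and 48 h groups, and only these libraries entered the fit. The interval from 6 h and 12 h to 168 h includes the time between 12 h and 48 h, so it does not isolate movement after 48 h. Here 5334 probe sets (22.0%) were called. Of the 353 that rose by 48 h, 291 (82.4%) were called higher at 168 h and 1 lower, where 10.3% of all probe sets were called higher. Of the 341 that fell by 48 h, 241 (70.7%) were called lower at 168 h and 1 higher, where 11.7% of all were called lower.

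Plate position again went with time in this comparison. The 6 h and 12 h libraries lay in columns 10 and 11 and the 168 h libraries in column 12, and 1 of the 2 litters at 168 h lay on the plate of the other tissue. In the fit of all 5 times 5796 probe sets were called, 292 of the 353 higher and 251 of the 341 lower, and without that litter these numbers were 5064, 293 and 252. With plate column as a fixed factor, which can be estimated only with the 1 h and 48 h libraries in the fit, 1128 (4.65%) were called, 117 of the 353 higher and 128 of the 341 lower.

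The median log2 change from 6 h and 12 h to 168 h was 0.58 for the probe sets that rose and -0.49 for those that fell, where that over all probe sets was -0.017. From 6 h and 12 h to 168 h, 1387040_AT changed by 3.91 ± 0.31 on the log2 scale (SE, adjusted p = 3.36e-10), and 1374762_AT by -3.42 ± 0.23 (SE, adjusted p = 1.75e-11), both in the fit of all 5 times. In that fit 1379548_AT changed by -0.57 ± 0.28 (SE) and was not called (adjusted p = 0.146).

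The called probe sets moved together in single libraries too. For each library the deviation of each called probe set from its mean over the noHS libraries of that tissue was taken, and the median over the called probe sets gave 1 value. In cortex this value for the probe sets that rose was -0.44 to -0.29 at 1 h and 0.035 to 0.15 at 48 h on the log2 scale, which the selection fixes. At 6 h it was -0.28 to -0.030, at 12 h -0.16 to 0.087 and at 168 h 0.45 to 0.54. Replicate 3 at 6 h, at -0.030, was the only cortex library of that time in plate column 11. The other 6 h libraries, in column 10, read -0.28 to -0.11. The 6 h and 12 h libraries overlapped, and all 5 of the 168 h libraries were above the rest.

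In hippocampus, whose values did not select the probe sets, the same medians were -0.30 to -0.14 at 1 h, -0.033 to 0.076 at 48 h and 0.37 to 0.56 at 168 h. These 3 groups did not overlap, though the 1 h and 48 h libraries differed in litter and plate column, as in cortex. At 6 h the value was -0.25 to 0.064, which overlaps the 1 h and 48 h libraries, and at 12 h it was -0.12 to 0.016, which overlaps those at 48 h. Replicate 2 at 6 h, at 0.064, was the only hippocampus library of that time in plate column 11. The other 6 h libraries, in column 10, read -0.25 to -0.19. Replicate 2 came from the same pup as cortex 6 h replicate 3, so pup and plate column cannot be told apart here. For the probe sets that fell in cortex, the hippocampal medians were 0.15 to 0.28 at 1 h, -0.056 to 0.14 at 48 h and -0.52 to -0.19 at 168 h, also without overlap, and 48 h replicate 1, at 0.14, lay nearest to the 1 h libraries. At 6 h they were 0.033 to 0.25 and at 12 h -0.045 to 0.15, and both overlap the 48 h libraries. At 6 h replicate 2 was again the one apart, at 0.033, and the others read 0.165 to 0.25.

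**Figure D4:**
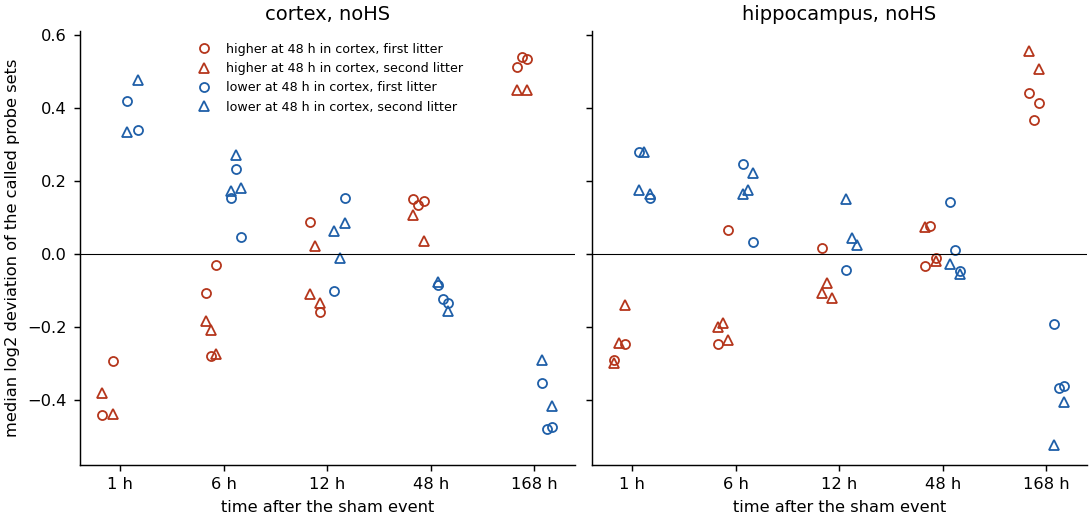
Median log2 deviation (vertical axis) of the 353 probe sets that rose (red) and the 341 that fell (blue) in noHS cortex by 48 h, 1 point per noHS library at the 5 times, with circles and triangles for the 2 litters of each time. In hippocampus the red points are at -0.30 to -0.14 at 1 h, -0.033 to 0.076 at 48 h and 0.37 to 0.56 at 168 h, and the blue points run the other way.

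Cortex of the seizure groups gave fewer calls over the same 2 times. In HS cortex 274 probe sets were called (1.13%), 187 higher (0.771%) and 87 lower (0.359%) at 48 h. In HS+NBQX cortex 107 were called (0.441%), 52 higher (0.214%) and 55 lower (0.227%). With litter as a random block 76 were called in HS and 3 in HS+NBQX. Leaving out single libraries moved these counts between 49 and 302 for HS and between 3 and 239 for HS+NBQX. Most of these pups shared their litters with the noHS pups of the same time, so litter and time cannot be told apart here either. In HS and in HS+NBQX the 1 h and 48 h libraries lay in different plate columns, and noHS, HS and HS+NBQX shared no plate column. Plate position can therefore not be told apart from time or from treatment.

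Of the 353 probe sets that rose in noHS cortex, 328 were higher at 48 h in HS and 318 in HS+NBQX, with median log2 changes of 0.26 in each. Of those that fell, 282 were lower in HS and 306 in HS+NBQX, with medians of -0.20 and -0.24. Among all probe sets 47.1% were higher in HS and 48.1% in HS+NBQX, and 52.9% and 51.9% were lower. The medians over all probe sets were -0.018 and -0.010. The calls shared in direction with HS were 39 upward, which is 11.0% of the noHS list and 20.9% of the HS list, and 22 downward, which is 6.45% and 25.3%. With HS+NBQX they were 24 upward, which is 6.80% and 46.2%, and 24 downward, which is 7.04% and 43.6%. In all 3 treatments 18 of the 24249 probe sets were called, all 18 in the same direction.

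The probe sets 1387040_AT, 1368263_A_AT and 1374762_AT were called in all 3 treatments. In HS cortex 1387040_AT read 84.9, 79.1, 56.6, 9.50 and 72.4 at 1 h and 171, 381, 151, 117 and 128 at 48 h, without overlap, and its log2 change was 1.83 ± 0.43 (SE, adjusted p = 0.0349). In HS+NBQX cortex it read 61.4, 20.5, 36.5 and 37.2 at 1 h and 311, 140, 282, 66.8 and 107 at 48 h, also without overlap, and its log2 change was 2.09 ± 0.42 (SE, adjusted p = 0.0259). The 48 h ranges of the 3 treatments overlapped.

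For 1374762_AT the log2 change was -1.23 ± 0.25 in HS (SE, adjusted p = 0.0169) and -1.52 ± 0.31 in HS+NBQX (SE, adjusted p = 0.0277). For 1379548_AT it was -0.64 ± 0.29 in HS (SE, adjusted p = 0.299) and -0.23 ± 0.17 in HS+NBQX (SE, adjusted p = 0.691). At 48 h the HS libraries of 1379548_AT read 500 to 737, all above the noHS libraries at 181 to 493, and the HS+NBQX libraries read 432 to 604 and overlapped the highest noHS library. These treatments lay in different plate columns.

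Whether the change between 1 h and 48 h differed among the 3 treatments was tested for every probe set, and 7 passed (0.0289%, limma F test). Treatment and plate column cannot be told apart in this test. All 7 were lower at 48 h than at 1 h in noHS cortex, where 12821 of all 24249 probe sets were lower. Of the 7, 5 were among the 341 (1.41% of all) called lower there. The F test and the noHS calls used the same noHS libraries of 1 h and 48 h. Choosing these 5 by both therefore partly fixes their pattern across treatments. In these 5 the log2 change was -1.43 to -0.53 in noHS, -0.098 to 0.38 in HS and -0.22 to 0.24 in HS+NBQX, where none of the 5 was called (smallest adjusted p = 0.083). The geometric mean intensity at 48 h was lowest in noHS in each of the 5. At 1 h it was close among noHS, HS and HS+NBQX in 2 of them, at 802, 783 and 790 and at 496, 499 and 522. In the other 3 the treatments stood further apart at 1 h, at 98.3, 142 and 128, at 178, 218 and 222 and at 156, 118 and 120. Of the 7, the probe set with the smallest adjusted p (9.79e-05, F test) was not called in noHS (-0.25, limma, adjusted p = 0.120). It was called higher in HS (0.43, adjusted p = 0.00358) and in HS+NBQX (0.44, adjusted p = 0.0168). The remaining probe set changed by -0.13 in noHS (adjusted p = 0.413), 0.47 in HS (adjusted p = 0.00673) and 0.29 in HS+NBQX (adjusted p = 0.216).

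**Figure D5:**
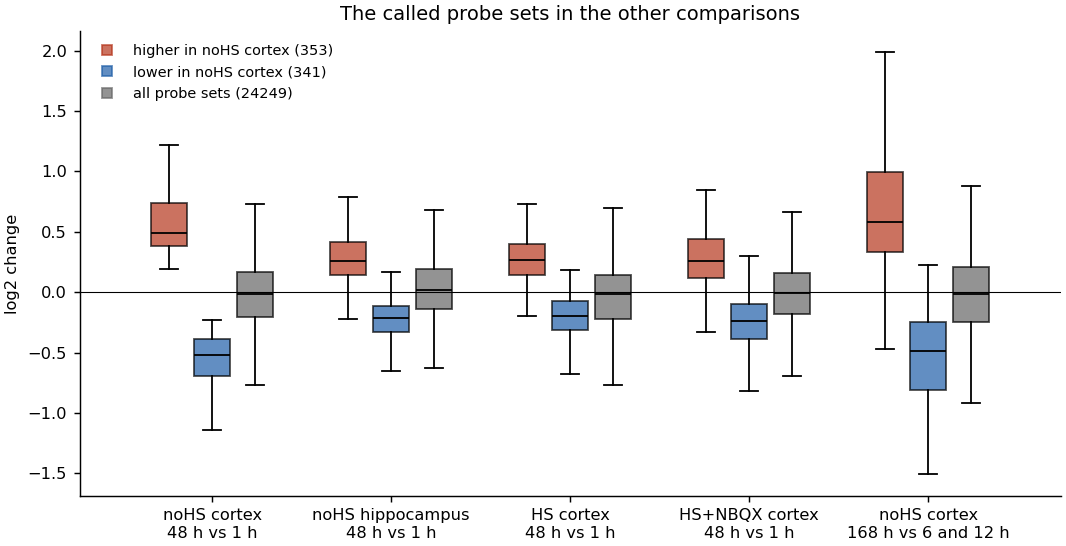
Log2 change (vertical axis) in 5 comparisons for the 353 probe sets that rose (red) and the 341 that fell (blue) in noHS cortex by 48 h and for all 24249 (grey), as boxes of the quartiles with the median and whiskers to the last value within 1.5 box lengths. The first comparison chose the probe sets, and in the other 4 the red medians lie between 0.26 and 0.58 and the blue ones between -0.20 and -0.49.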

How the data were processed

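The deposited values are linear microarray intensities, 1 per probe set and library. Per the study's methods, the authors used HT Rat Focus arrays, computed probe set intensities with MAS5 (version not given in the sources used here), left out 2 scans for a possible tissue swap, and rescaled each array so that an upper percentile of the intensities with a present call was common to all. This scaling assumes that level to be equal between samples, and no other was added. Present calls were not used here. Group, litter and pup came from the sample labels, and plate position from the study's supplementary design description. Nothing in the labels says that a pup was sampled more than once per tissue.

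The 97 intensities at or below 0 were set to 0.0526, the smallest positive value, before the log2 transform. limma 3.58.1 in R 4.3.3 (lmFit, eBayes with trend) fitted 1 mean per time over the 25 noHS cortex libraries of all 5 times, and likewise for the other groups, with Benjamini-Hochberg adjustment over 24249 probe sets and a threshold of 0.05. The tissue difference was an interaction over the 49 noHS libraries. The same pups gave both tissues, by the pup identifiers in the labels, and with the animal as a random block the interaction also called 0 probe sets. The treatment difference was an F test over 72 cortex libraries. Single measures had exact permutation tests. The fits were tested on simulated data, with noise drawn independently for each library. In noHS cortex the estimated correlation was 0.124 within litters and 0.123 within plate columns. The simulation held no such correlation, so it cannot show how the fits behave with it. Of 100 changes of 0.5 on the log2 scale, 30 were recovered in noHS cortex, 18 in noHS hippocampus and 13 for the tissue difference. Of 100 changes of 1, these numbers were 60, 55 and 50. Python 3.11.15, numpy 2.4.6, pandas 2.3.3, scipy 1.17.1 and matplotlib 3.10.9 did the rest.

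No annotation of the probe sets was at hand, so planned gene lists and marker lists were not run. By the rule for naming, the 2 largest rises and 2 largest falls among called probe sets with non-overlapping groups and a mean log2 intensity of at least 7 in the higher group are named, the 66 control probe sets apart. The comparison and the lists were chosen with earlier results of these data known. The comparison of 168 h with 6 h and 12 h, its alternatives, and the covariate fits were chosen after seeing the data. The number of arrays limits the precision.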

Additional observations from a re-analysis of the deposited data

Results flagged for a closer look

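Of 92 groups of 4 to 6 values checked for a single value far from the others, 8 had one (Dixon's ratio of gap to range above its 95% critical value), where chance gives about 1 in 20. In noHS cortex, 1368263_A_AT had 1 high 1 h library (183 against 66.4 to 85.0, ratio 0.841). The probe set 1379548_AT had 1 high library at 6 h (855 against 212 to 320, ratio 0.832), at 48 h (493 against 181 to 235, ratio 0.827) and at 168 h (423 against 126 to 200, ratio 0.751). In HS cortex at 48 h, the same library was high for 1387040_AT (381 against 117 to 171, ratio 0.796) and for 1368263_A_AT (548 against 255 to 296, ratio 0.860). The upper quartile of log2 intensity was low in 1 library of noHS cortex at 48 h (8.18 against 8.26 to 8.29, ratio 0.768). The mean log2 intensity of the 18 spike controls was high in 1 library of noHS hippocampus at 48 h (11.0 against 10.3 to 10.5, ratio 0.772).

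The change between 1 h and 48 h differed among noHS, HS and HS+NBQX cortex in 7 probe sets by the F test of the difference. Values are given in the report for the 5 called in noHS cortex and for the others. Treatment and plate column cannot be told apart in this test.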

How the results depend on the processing

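The noHS cortex count of 694 became 443 without the mean-variance trend, 285 with litter and 178 with plate column as a random block, 2 with plate column as a fixed factor, 242 with the GAPDH 3' to 5' ratio as a covariate, 110 with the methods' t-test (4310 at an unadjusted p under 0.05), and 213 to 648 without single libraries. It stayed between 698 and 910 under quantile normalization, a common median, a pseudocount of 32 or without the dimmest 40% of probe sets. The same held with only the 1 h and 48 h libraries, or with the library median or the beta-actin ratio as a covariate. The members changed more than the count. Of the 694, 519 were still called with only the 1 h and 48 h libraries and 528 with a common median. With the library median as a covariate 568 were still called, and in the remaining settings 650 to 677. Replicate numbers did not pair the 1 h and 48 h libraries, with correlations of same-numbered deviations of -0.062 to 0.12 in cortex and -0.35 to 0.11 in hippocampus, and with the replicate number as a block 373 were called in cortex and 5 in hippocampus.

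The hippocampus count of 15 became 0 without the trend (2059 at an unadjusted p under 0.05), with the plate column as a fixed factor (1049 at an unadjusted p under 0.05) and with the methods' t-test (1734 at an unadjusted p under 0.05), 4 with only the 1 h and 48 h libraries, 5 with litter or plate column as a random block, and 2 to 15 without single libraries. The tissue difference stayed at 0 calls in limma under every alternative run, with 770 to 1714 probe sets at an unadjusted p under 0.05. With litter as a random block, HS cortex had 76 calls, HS+NBQX cortex 3 and the treatment difference 19. Quantile normalization gave 12 for the treatment difference and a common median 4, and leaving out single libraries gave 5 to 11, with 49 to 302 for HS and 3 to 239 for HS+NBQX. For 168 h against 6 h and 12 h in noHS cortex, 5796 calls became 1128 with the plate column as a fixed factor and stayed between 4573 and 5334 in the other fits run. The cause of these shifts was not tested.

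All 4 named probe sets kept their direction under each alternative run for noHS cortex. With the plate column as a fixed factor their log2 changes were 0.98, 0.81, -0.96 and -0.64 for 1387040_AT, 1368263_A_AT, 1379548_AT and 1374762_AT, with adjusted p from 0.776 to 0.825. With the methods' t-test the adjusted p was 0.0501 for 1387040_AT and 1368263_A_AT and 0.0919 for 1379548_AT. The alternatives on gene lists were not run.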
